A study of Arabidopsis thaliana with 6 samples.

Results

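The 38 genes described here make abscisic acid, break it down, sense it and carry its signal, out of 32962 genes in the table. They were taken by gene identifier as 14 PYR/PYL receptors, 9 clade A protein phosphatases 2C (PP2Cs), 3 SnRK2 kinases, 8 synthesis genes and 4 CYP707A hydroxylases, and each identifier was present. The study compared 3 libraries of wild type (Col-0) with 3 libraries of EsANAC029-OE, a line that by its name overexpresses EsANAC029, which is a NAC-family transcription factor from Elymus sibiricus, a forage grass. All plants were seedlings of 25 days, kept at 25 °C under days of 16 h light and nights of 8 h, and no hormone or stress treatment is given. The promoter that drives the transgene, the number of lines and whether plants were pooled are not stated in the labels, and nothing says that replicates came from separate plantings, so p-values measure the spread between these libraries.

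Abscisic acid is the plant hormone of drought, seed dormancy and stomatal closure. It is made from carotenoids, by way of a cleavage step in plastids that NCED enzymes carry out, and is inactivated mainly by CYP707A cytochromes, which hydroxylate it. When a PYR/PYL receptor binds the hormone it holds a clade A PP2C in an inactive complex; the phosphatase otherwise keeps SnRK2 kinases off, and freed kinases act on ion channels and on transcription factors that bind the abscisic acid responsive element (ABRE). Many PP2C genes are themselves induced by the hormone, and several receptor genes are repressed by it.

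Libraries held 19608819 to 21715274 reads in genes. Levels are FPKM, reads scaled to gene length and to library size times a further factor that the deposited values carry. That factor was 0.920, 0.883 and 0.872 in wild type replicates 1, 2 and 3. In EsANAC029-OE it was 1.06, 1.25 and 1.15, so it differs between the groups and bears on the fold changes. Fits called library size alone leave it out. Tests used log2(FPKM + 1) in limma over 17221 genes that reached 1 FPKM in at least 3 libraries. The threshold was a Benjamini-Hochberg adjusted p under 0.05. EsANAC029-OE replicate 1 stood apart, with the highest value of the 6 libraries in 35.6% and the lowest in 33.6% of tested genes. Of 8 root markers only SCR, which leaves also express, passed the filter, and the root hair factor RSL4 was listed at 0 throughout. Seed markers reached at most 2.18 FPKM and flower markers at most 3.17 FPKM, both in EsANAC029-OE replicate 2.

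The 300 bases before the annotated gene start were read from the RefSeq TAIR10.1 genome for all members, whose gene coordinates equal those of the table. Shown are the receptor genes PYL5 and PYL6, which differed in opposite directions and hold none of the searched motifs, and a phosphatase and a hydroxylase gene with several. Each runs 5′ to 3′ on the gene's strand, and capitals mark the ABRE forms ACGTGTC and ACGTGGC, the G-box CACGTG and the NAC-bound core CATGTG on either strand. The G-box shares the letters ACGTG with the ABRE forms, so matches can overlap.
PYL5 (chr5:1608688-1608987, plus strand): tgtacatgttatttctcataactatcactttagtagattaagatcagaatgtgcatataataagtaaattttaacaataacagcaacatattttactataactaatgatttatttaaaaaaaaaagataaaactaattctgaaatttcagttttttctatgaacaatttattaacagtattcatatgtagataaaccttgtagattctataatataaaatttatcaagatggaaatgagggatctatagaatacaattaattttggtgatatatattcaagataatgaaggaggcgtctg
PYL6 (chr2:16846195-16846494, minus strand): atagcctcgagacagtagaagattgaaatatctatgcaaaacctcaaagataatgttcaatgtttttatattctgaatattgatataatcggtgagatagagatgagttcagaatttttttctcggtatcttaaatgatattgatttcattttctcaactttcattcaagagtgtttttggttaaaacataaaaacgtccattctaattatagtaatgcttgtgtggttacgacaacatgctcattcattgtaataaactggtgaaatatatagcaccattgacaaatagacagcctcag
PP2CA (chr3:3585851-3586150, minus strand): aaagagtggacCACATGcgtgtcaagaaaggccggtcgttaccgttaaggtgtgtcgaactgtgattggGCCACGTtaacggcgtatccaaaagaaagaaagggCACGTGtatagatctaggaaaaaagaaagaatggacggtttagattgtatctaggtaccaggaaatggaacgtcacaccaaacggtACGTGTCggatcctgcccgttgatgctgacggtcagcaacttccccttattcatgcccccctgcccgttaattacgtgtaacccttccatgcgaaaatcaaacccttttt
CYP707A3 (chr5:18371022-18371321, minus strand): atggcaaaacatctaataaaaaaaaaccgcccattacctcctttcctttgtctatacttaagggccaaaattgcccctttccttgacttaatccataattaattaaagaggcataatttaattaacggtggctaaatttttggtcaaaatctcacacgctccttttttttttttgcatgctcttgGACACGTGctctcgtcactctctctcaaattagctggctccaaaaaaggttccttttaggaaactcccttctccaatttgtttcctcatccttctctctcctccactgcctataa

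At least 1 of the ABRE forms stood in 10 of the 38 windows, or 26.3%. The share was 6.42% over the windows of all 32674 nuclear genes with a full window, and 8.08% over those of tested genes. By class the count was 4 of 9 PP2C genes (ABI1, HAB1, PP2CA and HAI2), 2 of 4 CYP707A genes (CYP707A1 and CYP707A3), 2 of 8 synthesis genes (NCED9 and ABA3), 1 of 3 SnRK2 genes (SNRK2.3) and 1 of 14 receptor genes (PYL7). PP2CA held an ACGTGGC 231 bases before its start and an ACGTGTC 110 bases before it, and CYP707A3 an ACGTGTC 115 bases before its start that runs into a G-box. CATGTG stood in 5 member windows, or 13.2%, and in 13.2% of all windows. These are matches of letters in a short window and depend on the annotated start.

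Of the 38 members 24 passed the filter on low values and were tested. PYR1 and PYL5, both receptors, fell in EsANAC029-OE, and no member rose. Over all tested genes 3.58% fell and 4.31% rose, or 7.89% in all, and 2 of 24 members, or 8.33%, is close to the share for either direction. At an unadjusted p under 0.05 there were 5 members, PYR1, PYL5, PYL6, OST1 and ABA2, or 20.8%, where all tested genes gave 28.3%. The same 5 were the tested members whose groups did not overlap, again 20.8%, against 39.9% of all tested genes. PYL6 alone lay higher and the other 4 lower, where 19.6% and 20.3% of all tested genes did so. The median log2 fold change of tested members was −0.16, and that of all tested genes was −0.0091. With limma-voom on the reads behind the FPKM values 1 member, PYR1, was called.

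**Figure D1:**
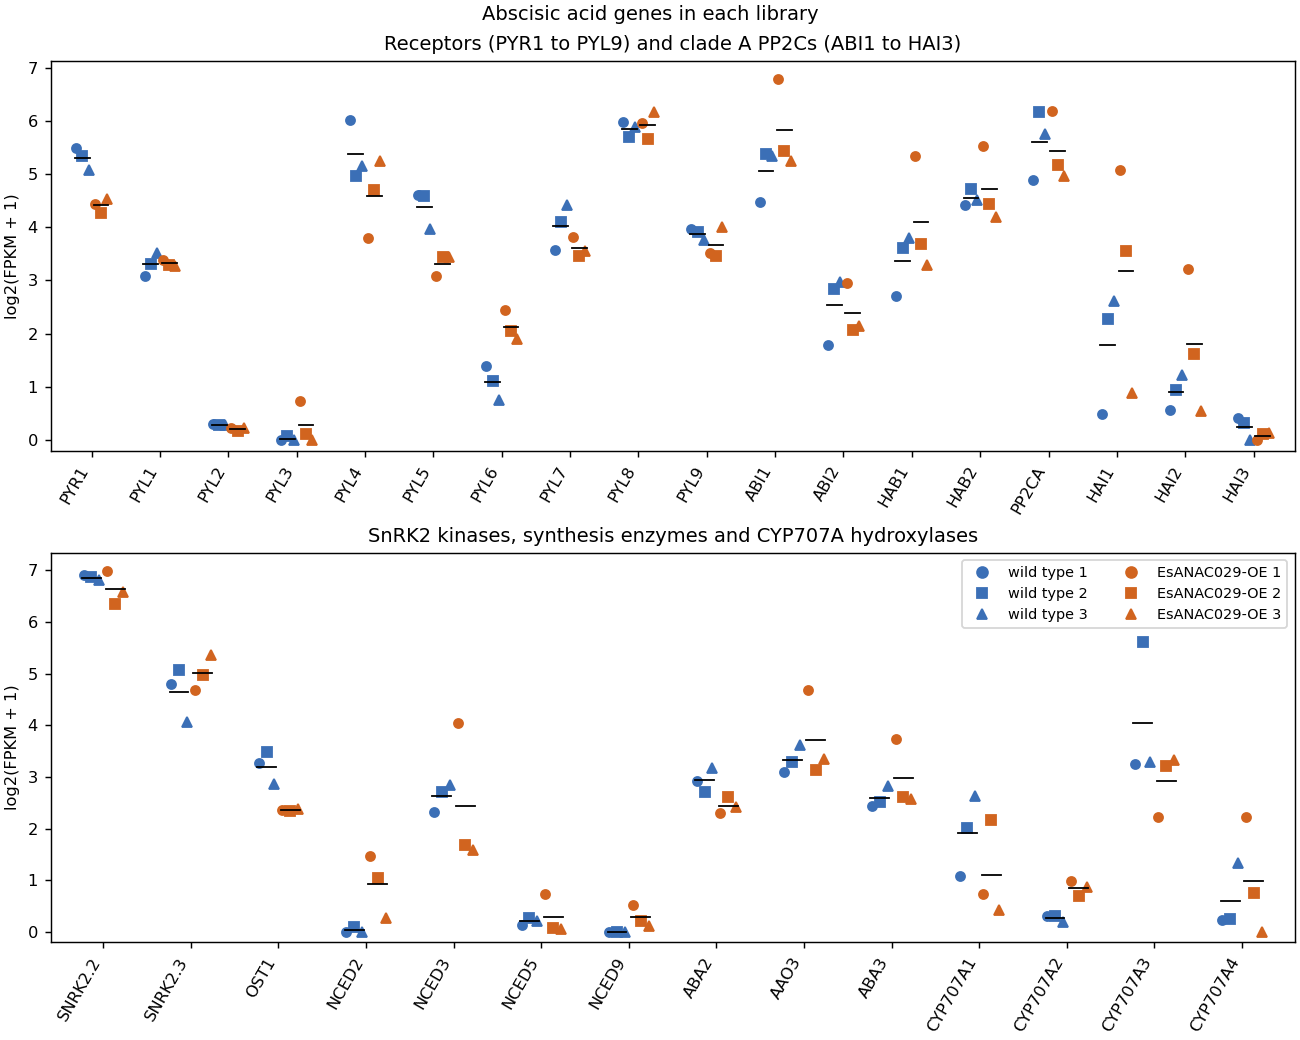
Level of each member with a value above 0, as log2(FPKM + 1), in the 3 wild-type libraries (blue) and the 3 EsANAC029-OE libraries (orange); marker shapes give the replicate number and black lines the group means. PYR1, PYL5 and OST1 lie lower in all 3 EsANAC029-OE libraries and PYL6 higher, while the 7 tested PP2C genes are higher in EsANAC029-OE replicate 1 than in its fellow libraries.

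The receptors are 14 small soluble proteins in 3 subfamilies. PYR1, a receptor that forms dimers without hormone (AT4G17870, TAIR10 chromosome 4, 9928587 to 9929875), had 44.2, 39.6 and 32.7 FPKM in wild type against 20.7, 18.3 and 22.2 FPKM in EsANAC029-OE. Every overexpressor library lay below every wild-type library. The means were 38.8 ± 5.79 and 20.4 ± 2.00 FPKM (SD, n = 3 each), a 1.90-fold difference, or −0.89 on the log2 scale (SE 0.176; adjusted p = 0.037 by limma). PYL5, a monomeric receptor of the PYL4 group (AT5G05440, chromosome 5, 1608988 to 1610527), had 23.2, 22.9 and 14.6 FPKM in wild type against 7.49, 9.80 and 9.80 FPKM in EsANAC029-OE. Here too the groups were apart, with wild type replicate 3 nearest to the overexpressor. Its means were 20.2 ± 4.92 and 9.03 ± 1.33 FPKM, 2.24-fold lower in EsANAC029-OE, with a log2 fold change of −1.06 (SE 0.232, limma adjusted p = 0.0456). Neither call is firm: without EsANAC029-OE replicate 1 both held (adjusted p = 0.0269 and 0.0436), and without any 1 of the other libraries limma gave an adjusted p of 0.0585 to 0.147 for PYR1 and 0.0741 to 0.167 for PYL5. By limma-voom PYL5 had an adjusted p of 0.0566. In RNA of mixed cell types, fewer cells of a type and less RNA per cell cannot be told apart.

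PYL6, a close relative of PYL5 (AT2G40330, chromosome 2, 16844588 to 16846194), differed in the other direction. Its values were 1.62, 1.17 and 0.675 FPKM in wild type against 4.47, 3.13 and 2.71 FPKM in EsANAC029-OE, on 20 to 52 and 98 to 165 reads. The groups did not overlap, and the mean was 2.98-fold higher in EsANAC029-OE, but the log2 fold change of 1.05 (SE 0.255) missed the threshold (limma adjusted p = 0.0589). It was called only with scaling by library size alone among the 13 alternatives. PYL4, the third expressed receptor of this subfamily, was at 64.2, 30.1 and 34.8 FPKM in wild type against 12.9, 24.9 and 37.0 FPKM in EsANAC029-OE. These ranges overlap, and its log2 fold change of −0.80 had a 95% interval from −1.88 to 0.27.

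PYL8, a receptor known for its part in root growth under abscisic acid, was the most abundant receptor per length in 5 of the 6 libraries. It was at 62.0, 51.1 and 58.4 FPKM in wild type against 61.6, 49.5 and 70.9 FPKM in EsANAC029-OE, with a log2 fold change of 0.07 and a 95% interval from −0.40 to 0.54. PYL1, a dimeric receptor like PYR1, stood at 8.95 ± 1.43 and 8.99 ± 0.394 FPKM (interval of the log2 fold change −0.39 to 0.42). PYL7 and PYL9, of the PYL8 subfamily, had log2 fold changes of −0.42 and −0.22 and did not pass the test (adjusted p = 0.312 and 0.508); the sign of PYL9 turned to 0.12 with library size alone. PYL7 shares 840 bases with genes on the opposite strand, and as the strand setting is not given in the sources used here, reads of the partners cannot be told apart.

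The make-up of the receptor transcripts is given as shares within a library, which do not depend on how libraries are scaled. PYL8 made up 27.1, 27.7 and 31.65% of the summed receptor FPKM in wild type against 43.7, 36.7 and 40.0% in EsANAC029-OE. PYR1 made up 19.3, 21.5 and 17.7%, and 14.7, 13.6 and 12.5%. PYL6 made up 0.366 to 0.708% in wild type and 1.53 to 3.17% in EsANAC029-OE. PYL5 made up 10.2, 12.4 and 7.90%, and 5.31, 7.28 and 5.53%. The shares of these 4 genes did not overlap between the groups, and that of PYL4 did, at 16.3 to 28.0% in wild type and 9.16 to 20.9% in EsANAC029-OE. No background for such shares was computed. By subfamily, that of PYL7 to PYL10 held 44.0 ± 5.54% and 55.5 ± 4.47%, that of PYL4 to PYL6 with PYL11 to PYL13 held 31.8 ± 6.26% and 24.6 ± 6.00%, and that of PYR1 to PYL3 held 24.2 ± 2.00% and 19.9 ± 2.25% (SD, n = 3 each). No test was made of sums or shares, since the members were chosen.

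**Figure D2:**
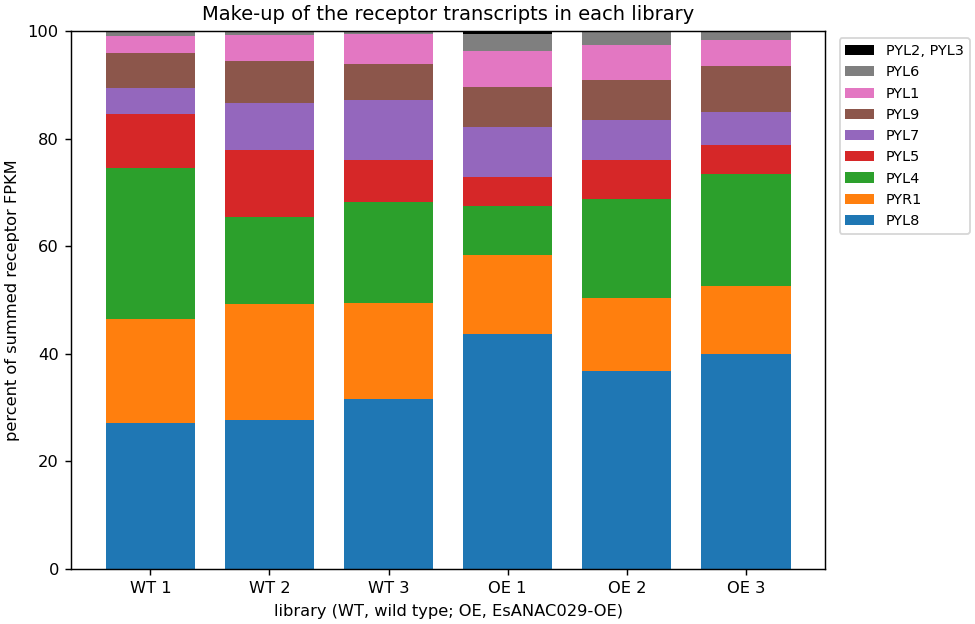
Share of each receptor gene in the summed receptor FPKM, in percent, for each wild-type (WT) and EsANAC029-OE (OE) library. PYL8 takes 27.1 to 31.65% in wild type and 36.7 to 43.7% in EsANAC029-OE, and PYR1 takes less in every EsANAC029-OE library than in any of wild type. The FPKM level of PYL8 itself overlaps between the groups.

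The remaining 6 receptors were not tested. PYL10, PYL11, PYL12 and PYL13 were listed at 0 in all 6 libraries, which at these depths allows up to 3 reads a library, for counting error only. PYL2, a dimeric receptor, had 4 to 6 reads a library, and PYL3 had 15 reads in EsANAC029-OE replicate 1 and at most 2 in the others.

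Clade A PP2Cs hold the pathway off. No PP2C gene was called by limma among 7 tested, none by limma-voom, and none had an unadjusted p under 0.05. The values differed widely between libraries of one group. In the EsANAC029-OE group all 7 tested genes were highest in replicate 1, which held for 45.0% of all tested genes, and in wild type all 7 were lowest in replicate 1, against 33.3% of all tested genes. The 4 tested transcription factor genes of the pathway were also all highest in EsANAC029-OE replicate 1 of their group, as were 3 of 4 tested synthesis genes, so this order is not particular to PP2C genes. It was noticed after the values were seen.

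ABI1, the phosphatase of the first insensitive mutant, was at 21.1, 40.7 and 39.4 FPKM in wild type against 109.5, 42.5 and 36.8 FPKM in EsANAC029-OE. Replicate 1 stood far above wild type, replicate 2 just above its highest library, and replicate 3 inside its range. ABI1 shares 22 bases with a gene on the opposite strand. HAB1, a close relative of ABI1, was at 5.54, 11.2 and 13.0 FPKM and at 39.5, 11.8 and 8.77 FPKM. HAI1, also named SAG113 and known from senescing leaves (AT5G59220), had the widest spread, with 0.408, 3.83 and 5.10 FPKM in wild type against 32.8, 10.7 and 0.852 FPKM in EsANAC029-OE. Its highest library was thus 80.3-fold above its lowest, and wild type alone spanned 12.5-fold. HAI2, its relative, was at 0.473 to 1.34 FPKM in wild type against 8.32, 2.07 and 0.466 FPKM in EsANAC029-OE. For HAI1 the log2 fold change of 1.38 had a 95% interval from −1.31 to 4.07, so a large difference either way lies within it.

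PP2CA, a phosphatase that acts on SnRK2 kinases and on the anion channel SLAC1, was at 28.6, 70.7 and 53.2 FPKM in wild type against 71.7, 35.1 and 30.2 FPKM in EsANAC029-OE. The groups overlapped over nearly their whole range. HAB2 was at 22.6 ± 2.68 and 27.7 ± 15.2 FPKM, and ABI2, the partner of ABI1, at 5.16 ± 2.38 and 4.44 ± 1.99 FPKM (SD, n = 3 each). With library size alone the log2 fold changes of PP2CA and ABI2 turned from −0.16 and −0.15 to 0.20 and 0.15. Against the wild-type mean, the median PP2C deviation in log2 units was 1.73, 0.31 and −0.36 in EsANAC029-OE replicates 1, 2 and 3 and −0.67, 0.31 and 0.31 in wild type replicates 1, 2 and 3. AHG1, a phosphatase of seeds, was listed at 0 throughout, and HAI3 had at most 10 reads a library.

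**Figure D3:**
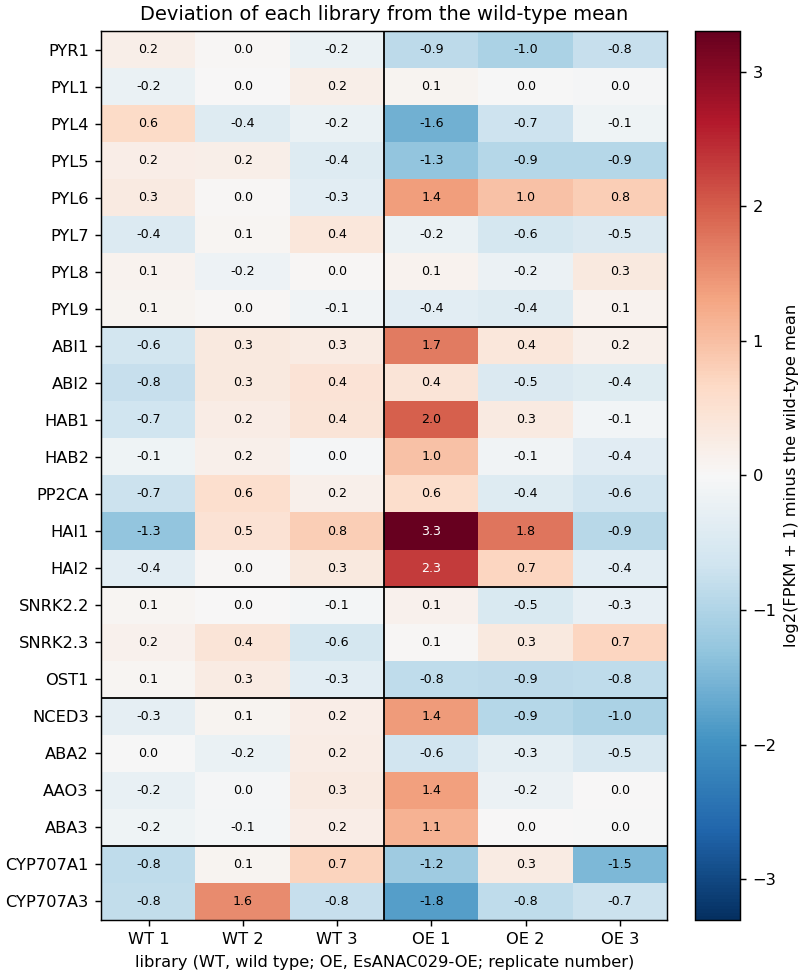
Deviation of each library from the wild-type mean, in log2(FPKM + 1) units, for the 24 tested genes (rows, with lines between receptors, PP2Cs, SnRK2s, synthesis and CYP707A genes) in the 6 libraries (columns). The PP2C block is red in EsANAC029-OE replicate 1, where HAI1 reaches 3.3, and blue in wild type replicate 1, while PYR1, PYL5 and OST1 are blue in all 3 EsANAC029-OE libraries.

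The 3 SnRK2 kinases that answer to abscisic acid differed in level. None was called by limma or limma-voom, and 1, OST1, had an unadjusted p under 0.05. OST1, also named SNRK2.6, the kinase that closes stomata (AT4G33950, chromosome 4, 16271745 to 16274825), had 8.61, 10.2 and 6.23 FPKM in wild type against 4.12, 4.08 and 4.18 FPKM in EsANAC029-OE. Its overexpressor values were nearly equal and all below wild type. The means of 8.34 ± 1.98 and 4.13 ± 0.0486 FPKM differ 2.02-fold, with a log2 fold change of −0.84 (SE 0.203, 95% interval −1.33 to −0.35), and the test missed the threshold (limma adjusted p = 0.0581). Without EsANAC029-OE replicate 1 it was called (adjusted p = 0.0489).

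Guard cells are a main site of OST1, so their markers are set beside it. Their summed level was 48.6 to 62.9 FPKM in wild type against 22.8 to 46.8 FPKM in EsANAC029-OE. All 5 markers had negative log2 fold changes (median −0.85, beside −0.0091 over all tested genes). The groups did not overlap for 2 of the 5, or 40%, near the 39.9% of all tested genes. KAT1, whose groups overlapped, set the median and was the largest part of the sum in wild type (23.6 to 30.8 FPKM). SLAC1 fell, but it also stands in the list of guard-cell ion transport and passed the filter only through its wild-type libraries. MYB60, a factor of guard cells, was at 8.71, 7.45 and 10.1 FPKM and at 2.25, 3.99 and 6.67 FPKM, lower in each EsANAC029-OE library but not past the test (adjusted p = 0.124). FAMA, the factor that ends guard cell divisions, was at 12.1 ± 0.475 and 10.5 ± 2.45 FPKM and did not pass (adjusted p = 0.522). The part of guard cells in the OST1 values was not tested.

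SNRK2.2, the most abundant of the 3 kinases, was at 119.6, 115.4 and 110.7 FPKM in wild type against 126.2, 80.8 and 94.8 FPKM in EsANAC029-OE, which overlap. It took 77.9 ± 5.30% of the summed SnRK2 FPKM in wild type against 73.3 ± 7.07% in EsANAC029-OE. SNRK2.3, its close partner, was at 25.0 ± 8.61 and 31.7 ± 7.67 FPKM (log2 fold change 0.36, adjusted p = 0.487), and it shares 411 bases with genes on the opposite strand. The sign of SNRK2.2, −0.22, turned to 0.15 with library size alone.

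Among the synthesis genes no member was called by limma or limma-voom of 4 tested, and 1, ABA2, had an unadjusted p under 0.05. NCED3, the cleavage enzyme induced by drought, was at 4.00, 5.56 and 6.16 FPKM in wild type against 15.5, 2.19 and 2.00 FPKM in EsANAC029-OE. The overexpressor libraries lay on opposite sides of wild type, replicate 1 above it and replicates 2 and 3 below it. The log2 fold change over all libraries was −0.19 (adjusted p = 0.876), and without EsANAC029-OE replicate 1 it was −0.99 and called (adjusted p = 0.0291); with library size alone it turned to 0.10. NCED3 held 96.8 ± 1.32% of the summed FPKM of the 5 NCED members in wild type and 77.8 ± 12.7% in EsANAC029-OE.

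The other NCED members were scarce. NCED2 had 0, 3 and 0 reads in wild type and 97, 66 and 11 reads in EsANAC029-OE, and NCED9, known from seeds, had 0 reads in wild type and 22, 9 and 4 in EsANAC029-OE. Both were above wild type in each overexpressor library, and both were below the filter. Fitted by limma with no filter their adjusted p were 0.156 and 0.207. NCED9 entered that fit only through EsANAC029-OE, where it is higher, so its value carries little weight. NCED5 had 31 reads in EsANAC029-OE replicate 1 and 2 to 8 in the other libraries, and NCED6, a gene of the endosperm, was listed at 0.

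ABA2, the dehydrogenase that makes abscisic aldehyde, was at 6.60, 5.57 and 8.02 FPKM in wild type against 3.94, 5.12 and 4.31 FPKM in EsANAC029-OE. The groups lay apart by little, and the log2 fold change of −0.50 (SE 0.191) did not pass (adjusted p = 0.154). AAO3, the aldehyde oxidase of the last step, was at 7.55, 8.72 and 11.25 FPKM and at 24.65, 7.82 and 9.21 FPKM. ABA3, which activates the molybdenum cofactor of that oxidase, was at 4.43, 4.73 and 6.06 FPKM and at 12.3, 5.07 and 4.97 FPKM. For NCED3, AAO3 and ABA3 alike, EsANAC029-OE replicate 1 was the highest of the 6 libraries, and without it the log2 fold changes of AAO3 and ABA3 were −0.08 and −0.00255. AAO3 and ABA2 share 985 and 470 bases with genes on the opposite strand.

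Phloem companion cells are a known site of abscisic acid synthesis. Their 4 markers summed to 297 to 332 FPKM in wild type and to 290.9, 128 and 178 FPKM in EsANAC029-OE. All 4 had negative log2 fold changes (median −0.76, beside −0.0091 over all tested genes). Of the 4 markers 1 fell, where 3.58% of all tested genes did so, and 4 genes are too few to compare shares. It was SULTR2;1 (log2 fold change −1.17, limma adjusted p = 0.0261). That call held without EsANAC029-OE replicate 1 (adjusted p = 0.00696) and was lost without any 1 of the other libraries (0.0526 to 0.1265). The part of these cells in the synthesis values was not tested.

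CYP707A hydroxylases remove the hormone. Of 2 tested members none was called by limma or limma-voom, and none had an unadjusted p under 0.05. CYP707A3, the main form of leaves after stress is relieved, was at 8.46, 47.7 and 8.76 FPKM in wild type against 3.67, 8.27 and 9.02 FPKM in EsANAC029-OE. Wild type replicate 2 set the wild-type mean; the other wild-type libraries lie inside the overexpressor range. CYP707A1 was at 1.11, 3.02 and 5.21 FPKM and at 0.659, 3.48 and 0.336 FPKM, with EsANAC029-OE replicate 2 among the wild-type values.

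CYP707A2, the form known from germinating seeds, was low, and higher in each EsANAC029-OE library than in any of wild type. It was at 0.236, 0.230 and 0.140 FPKM in wild type (6 to 11 reads) and at 0.991, 0.610 and 0.819 FPKM in EsANAC029-OE (37 to 53 reads). No library reached 1 FPKM, so it was not tested with the other members; fitted with no filter it was called higher, at a log2 fold change of 0.58 on the log2(FPKM + 1) scale (SE 0.106, limma adjusted p = 0.0485). CYP707A4 had 147 reads in EsANAC029-OE replicate 1, 31 in replicate 2 and none in replicate 3, against 6, 6 and 49 in wild type.

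**Figure D4:**
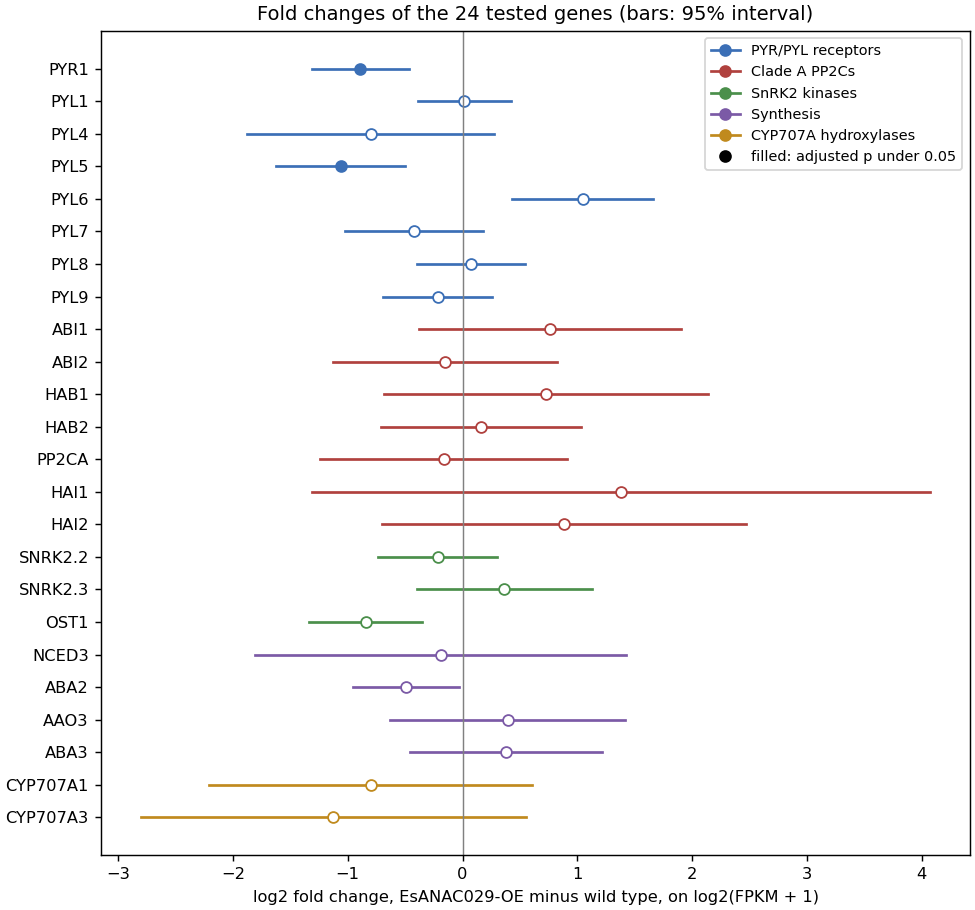
Log2 fold change of EsANAC029-OE minus wild type on the log2(FPKM + 1) scale for the 24 tested genes, coloured by class, with bars for the 95% interval from limma and filled points for an adjusted p under 0.05. PYR1 and PYL5 are filled, the intervals of PYL6, OST1 and ABA2 also leave out 0, and those of the PP2C genes are wide.

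Set against each other, the classes gave ratios whose ranges overlapped between the groups. The summed receptor FPKM was 184 to 229 in wild type and 141, 135 and 177 in EsANAC029-OE replicates 1, 2 and 3. The summed PP2C FPKM was 79.2, 159 and 141 in wild type and 314, 126 and 97.9 in EsANAC029-OE. The ratio of receptor to PP2C transcripts was therefore 2.89, 1.16 and 1.31 in wild type and 0.45, 1.07 and 1.81 in EsANAC029-OE. Its highest value was that of wild type replicate 1 and its lowest that of EsANAC029-OE replicate 1.

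Among the called genes of the wider pathway lists, that with the smallest adjusted p acts upstream of NCED. The list of other synthesis enzymes includes the carotenoid cleavage genes CCD1 and CCD4, which lie outside the route to abscisic acid. Where 3.58% of all tested genes fell and 4.31% rose, 1 of its 6 tested genes fell and none rose. It was ABA1, the zeaxanthin epoxidase that makes the carotenoid precursors and also serves the xanthophyll cycle (AT5G67030), which was at 115, 139 and 135 FPKM in wild type against 29.1, 19.9 and 17.7 FPKM in EsANAC029-OE. All overexpressor libraries were far below wild type, 5.83-fold in the means (log2 fold change −2.52, SE 0.225, limma adjusted p = 0.00605). Without wild type replicate 3 the adjusted p was 0.0568, and without any 1 of the other libraries the call held. A limma fit with replicate number as a block gave ABA1 an adjusted p of 0.0578. ABA4, which acts next to ABA1 in neoxanthin formation, was at 20.8 ± 2.00 and 19.4 ± 3.87 FPKM (adjusted p = 0.752).

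Of 4 tested SnRK2 kinases outside the abscisic acid group 1 rose, where 4.31% of all tested genes did so. This was SNRK2.8, a kinase that abscisic acid activates weakly. It was at 1.23, 1.18 and 0.465 FPKM in wild type against 7.16, 9.76 and 15.0 FPKM in EsANAC029-OE, 11.1-fold higher in the means (log2 fold change 2.54, SE 0.312, limma adjusted p = 0.0135). Its call held without EsANAC029-OE replicate 1 or 3 (adjusted p = 0.00696 and 0.0331) and missed the threshold without any 1 of the others, at 0.0571 to 0.0764. Of 10 tested genes of transport and conjugation 1 fell, where 3.58% of all tested genes did so. This was BGLU33, a beta-glucosidase that frees the hormone from its glucose ester. BGLU33 had means of 43.5 ± 0.855 and 18.9 ± 4.55 FPKM (log2 fold change −1.19, limma adjusted p = 0.0299). Its adjusted p was 0.0756 to 0.138 without EsANAC029-OE replicate 2 or any 1 wild-type library. ABCG40, an importer of the hormone, was at 0.647 to 1.204 FPKM in wild type against 50.9, 4.42 and 1.94 FPKM in EsANAC029-OE, apart in all libraries but not past the test (adjusted p = 0.195); this gene was picked with its values in view.

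Downstream, 2 of 9 tested genes of guard-cell ion transport fell and none rose, where 3.58% of all tested genes fell. The groups did not overlap for 4 of the 9, or 44.4%, near the 39.9% of all tested genes. The list's median log2 fold change was −0.85, the value of KAT1. The 5 guard cell markers, 3 of which are in the list, have the same gene as their median, so their −0.85 is no separate observation. The groups overlapped for KAT1, which was not called (limma adjusted p = 0.2815). The part of guard cells in these values was not tested. SLAC1, the anion channel that OST1 opens (AT1G12480), was at 2.85, 3.19 and 4.47 FPKM in wild type against 0.857, 0.939 and 0.897 FPKM in EsANAC029-OE (log2 fold change −1.23, SE 0.201, limma adjusted p = 0.0259). ALMT12, a second anion channel of guard cells, had means of 3.89 ± 0.814 and 1.55 ± 0.257 FPKM and fell (log2 fold change −0.93, adjusted p = 0.0456). All 3 EsANAC029-OE values of SLAC1 are under 1 FPKM, so it entered the test only through wild type, where it is high, and its call carries little weight. It missed the threshold without EsANAC029-OE replicate 2 or 3 (adjusted p = 0.0738 and 0.0517) and dropped below the filter without any 1 wild-type library. ALMT12 was called without EsANAC029-OE replicate 1 (adjusted p = 0.0276) and missed the threshold without any 1 of the other libraries (0.0832 to 0.1845), and limma-voom did not call it (adjusted p = 0.0576).

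Of the 7 transcription factors of the pathway 4 were tested, none was called by limma or limma-voom, and none had an unadjusted p under 0.05. ABF2, a bZIP factor that binds the ABRE, was at 5.23, 6.10 and 5.75 FPKM and at 10.8, 7.22 and 7.36 FPKM, apart in all libraries (adjusted p = 0.177). Among 21 tested genes known to respond to the hormone 1 fell, KIN2, a small hydrophilic stress protein, and none rose, or 4.76% against 3.58% of all tested genes that fell. KIN2 was at 949, 1915 and 2186 FPKM in wild type against 188, 208 and 102 FPKM in EsANAC029-OE (log2 fold change −3.31, SE 0.456, limma adjusted p = 0.0172). It is near-identical to its neighbour KIN1, so the split of reads between them is uncertain, and its call was lost without wild type replicate 2 or 3 or EsANAC029-OE replicate 2 (adjusted p = 0.0578 to 0.0961). The median log2 fold change of these targets was −0.97, beside −0.0091 over all tested genes, but 8 of the 21 had positive values. The groups did not overlap for 4 of 21, or 19.0%, against 39.9% of all tested genes. By unadjusted p under 0.05 in limma the order was the other way, with 8 of 21, or 38.1%, against 28.3% of all tested genes. Of those 8 genes 1 was higher in EsANAC029-OE.

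**Figure D5:**
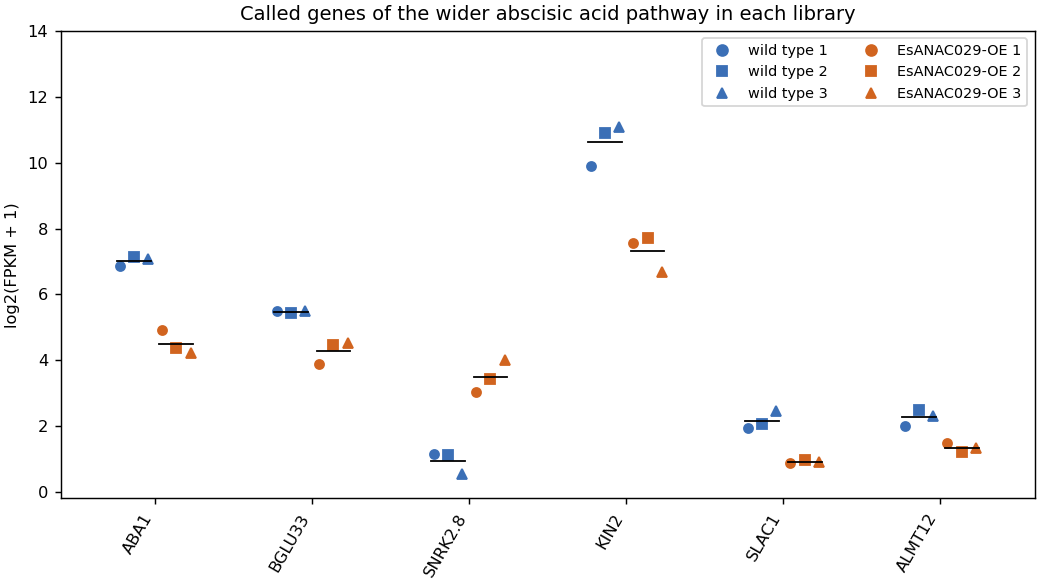
Level as log2(FPKM + 1) in each wild-type (blue) and EsANAC029-OE (orange) library for the 6 called genes of the wider pathway lists, with group means as black lines. ABA1, BGLU33, KIN2, SLAC1 and ALMT12 lie lower and SNRK2.8 higher in all 3 EsANAC029-OE libraries.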

How the data were processed

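Total RNA of seedlings was made into 6 libraries and sequenced as paired reads of 150 bases, per the labels' protocols. CASAVA 1.8, HISAT2, edgeR and the build TAIR10 are named in the submitters' processing notes. Which step used which, the read counter and the strand setting are not stated there. The authors deposited 1 value per gene and library, read here as FPKM from the values themselves since the header names no unit, with gene length in bases (unit: other) beside them. Multiplied by gene length, 100% of values were whole numbers of a step fixed within each library (tolerance 1e-06), and these numbers were taken as reads per gene.

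Values were fitted as log2(FPKM + 1) with limma 3.58.1 in R 4.3.3 (trended, moderated variance, genotype only, two-sided). Genes entered if they reached 1 FPKM in no fewer than 3 libraries, with Benjamini-Hochberg adjustment over all of them. The fit was also tried on simulated counts, with the same dispersion for all genes and no outlying library. In these data EsANAC029-OE replicate 1 stood apart, so that trial cannot show how the fit behaves here. Fold changes on this scale understate those of low genes. Floors of 3 reads cover counting error only. Members, lists, motifs and tests were chosen with earlier results of these data known. All members are accounted for; up to 3 called genes of each context list are named. Alternatives were a pseudocount of 0.1, other filters, library size alone, trimmed-mean factors, limma-voom, a replicate block, a threshold of 0.1 and leaving out each library. Amino acid sequences were not used here.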

Additional observations from a re-analysis of the deposited data

How the results depend on the processing

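Over the 24 tested members and 13 alternative fits, 271 of 309 values kept their sign and their side of the threshold, 19 changed sign, 16 lost the call and 3 gained it. The count of all called genes, 1359, was 819 with no filter, 3105 with library size alone, 821 by limma-voom, 16 with the replicate block, 2881 at an adjusted p under 0.1, and 59 to 2748 with 1 library left out. Fallen members, 2 as reported, numbered 1 with no filter, 0 with library size alone, 1 by limma-voom, 0 with the replicate block and 0 to 4 with 1 library left out. Risen members, 0 as reported, numbered 1 with no filter (CYP707A2), 1 with library size alone (PYL6) and 1 at a threshold of 0.1 (PYL6). Under the replicate block PYR1 and PYL5 had adjusted p of 0.128 and 0.129. Same-numbered libraries did not deviate together (correlations of −0.199, −0.0531 and −0.105). Unlike-numbered libraries gave correlations of −0.318 to 0.36. With 3 libraries a group, these values neither show a pairing by number nor exclude one. Library size alone moved the median log2 fold change of all tested genes to 0.31 and the share of calls that rose from 54.7 to 87.9%, and without EsANAC029-OE replicate 3 that share was 36.15%.

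With library size alone the sign changed for PYL9 (0.123), ABI2 (0.148), PP2CA (0.196), SNRK2.2 (0.147) and NCED3 (0.0954). Leaving out 1 library changed the sign of PYL1 (range −0.0914 to 0.117), PYL8 (−0.0448 to 0.211), ABI2 (−0.525 to 0.0703), HAB2 (−0.2425 to 0.424), PP2CA (−0.535 to 0.116), NCED3 (−0.994 to 0.233), AAO3 (−0.084 to 0.686) and ABA3 (−0.00255 to 0.5755). Counts of called genes with 1 library left out ran from 0 to 2 for responsive targets, 0 to 3 for transport and conjugation, 0 to 1 for other SnRK2 kinases, 0 to 3 for guard-cell ion transport and 0 to 3 for other synthesis enzymes, a list for which these fits were added after the data were seen; limma-voom called 1 gene of guard-cell ion transport. The cause was not tested. For the members under the filter on low values, counts of 0 to 147 reads a library limit what could be detected.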

Other observations

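Part of the order of libraries seen for the PP2C genes appeared among genes known to respond to abscisic acid, and it was noticed after the values were seen. EsANAC029-OE replicate 1 was the highest of its group for 10 of 21 tested responsive genes (47.6%, against 45.0% of all tested genes), unlike the PP2C genes. Wild type replicate 1 was the lowest of the wild-type libraries for 19 of 21 tested responsive genes (90.5%, against 33.3% of all tested genes), and EsANAC029-OE replicate 3 was the lowest of its group for 19 of 21 (90.5%, against 26.8%), and for 6 of 7 PP2C genes. RD29A, a classic marker of drought, cold and abscisic acid, was at 35.1, 220 and 578 FPKM in wild type replicates 1, 2 and 3 and at 35.7, 38.3 and 3.35 FPKM in EsANAC029-OE. RD20, a calcium-binding caleosin, was at 20.1, 178 and 250.1 FPKM and at 40.1, 13.7 and 6.84 FPKM. Wild type alone thus spanned 16.5-fold for RD29A and 12.5-fold for RD20.

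Responsive genes did not share a direction in EsANAC029-OE replicate 1. Transcription factor genes such as HB7, with 50.5 FPKM there against 1.16 to 4.58 FPKM in wild type, and NAC019, with 121 FPKM against 2.94 to 30.6 FPKM, were high in it, as were HAI1 and HAI2. RD22, a dehydration-responsive gene, was at 2.24 FPKM in that library, 63.1 and 52.5 FPKM in the other EsANAC029-OE libraries and 304 to 420.0 FPKM in wild type (log2 fold change −3.95, limma adjusted p = 0.0829). GBF3, a G-box binding bZIP factor, was at 4.17 to 9.26 FPKM in wild type against 31.45, 17.4 and 15.2 FPKM in EsANAC029-OE, apart in all libraries but short of the threshold (adjusted p = 0.0641). These genes were chosen after their values were seen.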
